A study of Mus musculus with 80 samples.

Results

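The 8 genes described here encode the steps of creatine synthesis, creatine uptake and phosphocreatine cycling: Gatm, Gamt, Slc6a8, Ckb, Ckm, Ckmt1, Ckmt2 and Alpl. They were chosen by gene symbol, as a pathway proposed to produce heat without uncoupling protein 1 (UCP1), and were 8 of the 32764 genes in the count files. RNA came from muscle, liver, brown fat (BAT) and the inguinal white fat depot (iWAT) of male C57BL/6J mice. The genotypes were WT, homozygous UCP1 KO, homozygous FGF21 KO and the double KO of both genes (dKO), with 5 libraries per tissue and genotype and 80 libraries in all. Mice of every genotype, WT included, had lived at 30 °C until they were 10 to 12 weeks old, and then spent 3 weeks at room temperature on a high-fat diet, with food removed for 2 to 3 h at the end. No group was kept warm or on chow, so the response to cooling and diet itself was not measured. The KO alleles are described without any tissue restriction. The series text spells the double KO as UCP1/FGF12, whereas its breeding crossed UCP1 KO with FGF21 KO mice.

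Creatine is made from arginine and glycine in consecutive steps, of which the amidinotransferase Gatm makes guanidinoacetate and the methyltransferase Gamt turns it into creatine. The transporter Slc6a8 carries creatine into cells. Creatine kinases move phosphate between ATP and creatine, with the cytosolic forms Ckb (brain type) and Ckm (muscle type) and the mitochondrial forms Ckmt1 (ubiquitous) and Ckmt2 (sarcomeric). In a proposed futile cycle of thermogenic fat, phosphocreatine is made at the mitochondrion and then hydrolysed by the tissue-nonspecific alkaline phosphatase Alpl, so that ATP turnover, and with it respiration, continues without UCP1. Ckm and Ckmt2 are classical genes of skeletal muscle, which lies next to both fat depots.

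The libraries held 28691377 to 50380696 counts on genes, with a median of 38022853. No pair of libraries of a tissue held identical counts. Levels are given as scaled CPM, which are counts relative to the library total (CPM) after TMM scaling over all 80 libraries. A group is given as mean ± SD with n = 5, and different genes are compared as scaled CPM per kilobase of exon. Whether libraries of different tissues came from the same mouse is not given, and p-values measure the spread between libraries. Fgf21 had 0 to 3 counts in every library labelled FGF21 KO or dKO. Ucp1 reads remained in the libraries labelled UCP1 KO, with 514 to 1200 scaled CPM in BAT against 3080 to 7250 in WT, and in iWAT they were higher in the libraries labelled UCP1 KO (62.9 to 465) than in WT (1.57 to 9.9). Which part of Ucp1 these reads covered was not analysed here. The summed markers of brown adipocytes (6 genes) lay at 2790 to 5680 scaled CPM in BAT, and those of hepatocytes (6 genes) at 89900 to 141000 in liver. In iWAT, the summed level of 8 lymphocyte markers was 698 to 980 in 4 of 5 FGF21 KO libraries, 495 and 657 in 2 of 5 WT, 914 and 928 in 2 of 5 dKO and 950 in 1 of 5 UCP1 KO libraries, and at most 19.5 in all others.

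The promoters of the genes on which the results turn are shown as the 250 bases before the annotated start, from the RefSeq promoter table of GRCm38.p6, which holds 7 of the 8 genes. Ckm and Ckmt2 are shown because their levels in fat are compared with those of muscle genes, Ckb as the cytosolic kinase that does not follow them, and Alpl, which has 2 annotated starts, because it was called in both comparisons of UCP1 loss in BAT. The starts of Alpl are numbered by ascending coordinate. On its minus strand the second start is the upstream one, and the first lies within the gene. Capitals mark matches on either strand to the E-box CAGCTG bound by myogenic factors, the MEF2 box as CTANNNNTAG, the TATA box TATAAA, the nuclear receptor motif AGGTCA and the core TGACG of CRE motifs. CTANNNNTAG allows any base at N and is looser than the MEF2 box itself.
Ckm promoter, chr7:19410844-19411093, plus strand: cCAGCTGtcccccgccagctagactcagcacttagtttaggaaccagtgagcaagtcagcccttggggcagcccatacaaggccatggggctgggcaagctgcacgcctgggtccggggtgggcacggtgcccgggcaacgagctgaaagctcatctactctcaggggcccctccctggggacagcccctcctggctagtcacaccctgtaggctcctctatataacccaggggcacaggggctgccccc
Ckmt2 promoter, chr13:91876886-91877135, minus strand: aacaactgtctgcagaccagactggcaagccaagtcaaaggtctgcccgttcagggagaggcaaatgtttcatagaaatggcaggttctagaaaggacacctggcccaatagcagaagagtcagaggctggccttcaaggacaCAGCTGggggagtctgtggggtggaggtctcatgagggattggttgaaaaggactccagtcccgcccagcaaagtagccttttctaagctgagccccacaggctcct
Ckb promoter, chr12:111672339-111672588, minus strand: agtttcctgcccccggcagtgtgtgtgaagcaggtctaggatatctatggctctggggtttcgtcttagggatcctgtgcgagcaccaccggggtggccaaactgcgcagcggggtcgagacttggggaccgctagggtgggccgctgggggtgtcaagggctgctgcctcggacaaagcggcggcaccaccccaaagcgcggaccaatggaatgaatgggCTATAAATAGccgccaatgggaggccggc
Alpl promoter, first start, chr4:137766476-137766725, minus strand: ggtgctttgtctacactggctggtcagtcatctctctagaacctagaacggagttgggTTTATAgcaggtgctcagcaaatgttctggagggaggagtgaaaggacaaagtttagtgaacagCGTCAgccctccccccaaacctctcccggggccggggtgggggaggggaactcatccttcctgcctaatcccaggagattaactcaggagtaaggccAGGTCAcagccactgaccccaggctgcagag
Alpl promoter, second start, chr4:137796385-137796634, minus strand: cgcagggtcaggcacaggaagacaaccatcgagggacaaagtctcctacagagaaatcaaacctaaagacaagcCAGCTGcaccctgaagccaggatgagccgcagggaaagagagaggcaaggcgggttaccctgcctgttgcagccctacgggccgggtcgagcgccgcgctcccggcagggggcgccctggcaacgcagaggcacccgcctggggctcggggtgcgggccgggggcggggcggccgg
In Ckm the E-box lay 249 to 244 bases before the start, and in Ckmt2 107 to 102 bases before it. Ckb had no CAGCTG in this window, and held a MEF2 box 29 to 20 bases before its start that overlaps a TATA box at 28 to 23. The first start of Alpl by coordinate, within the gene, had AGGTCA 31 to 26 bases before it. It also had a TATAAA on the other strand at 192 to 187 and a TGACG on the other strand at 128 to 124. The second, upstream start had a CAGCTG at 176 to 171. Of 32851 promoters of this length, 13% hold CAGCTG, 3.2% CTANNNNTAG, 12.4% TATAAA, 14.0% AGGTCA and 17.8% TGACG. The counts are per gene and do not tell the 2 starts of Alpl apart. Genes on the opposite strand overlap Ckm (A930016O22Rik), Ckmt2 (1700119I11Rik) and Ckmt1 (Strc), and the strand setting of the counting is not given in the sources used here, so reads of these neighbours may be included.

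Of the genes of creatine synthesis, Gamt was highest in liver, and Gatm was not told apart between liver and iWAT. In WT, Gamt (chromosome 10, 80258151 to 80261012 of GRCm38) had 129 ± 25.1 scaled CPM in liver, 9.92 ± 4.07 in iWAT, 8.42 ± 1.59 in muscle and 2.97 ± 0.945 in BAT. Liver was above and BAT below each other tissue (edgeR, adjusted p between 1.4e-24 and 4.05e-06), while iWAT and muscle were not told apart (log2 difference 0.23, 95% interval -0.3 to 0.77). Gatm (chromosome 2, 122594467 to 122611303) had 12.1 ± 3.08 in liver, 10.1 ± 3.52 in iWAT, 6.41 ± 0.478 in muscle and 2.97 ± 0.707 in BAT. For Gatm the neighbours liver and iWAT (adjusted p = 0.313) and iWAT and muscle (adjusted p = 0.0108) did not pass the threshold of 0.01, and BAT was below each of the others. With library totals in place of scaling factors, under which the median of all genes shifts by 1.09 between iWAT and liver, Gatm turned to 0.81 higher in iWAT than in liver (adjusted p = 0.000619). Per kilobase of exon, Gamt stood above Gatm in liver, at 89.2 ± 17.4 against 4.03 ± 1.03 scaled CPM per kilobase.

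The transporter Slc6a8 (chromosome X, 73673150 to 73682502) was highest in muscle, with 185 ± 16.8 scaled CPM, followed by 27.5 ± 3.88 in BAT, 15.2 ± 2.99 in iWAT and 8.77 ± 2.02 in liver. Every neighbouring pair in this order differed, the smallest step being iWAT above liver by 0.79 on the log2 scale (adjusted p = 0.000586). Slc6a8 and Alpl were the members called higher in BAT than in iWAT, by 0.86 for Slc6a8 (adjusted p = 0.000246) and 2.38 for Alpl (adjusted p = 2.39e-12). With library totals in place of the scaling factors, under which the median of all genes in this comparison shifts by -0.74, Slc6a8 differed by 0.12 (adjusted p = 0.588) and lost the call.

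Among the kinases, Ckm and Ckmt2 were muscle genes and Ckb was the kinase with the most even level in fat. In muscle of WT, Ckm (chromosome 7, 19404776 to 19422841) had 19400 ± 1780 scaled CPM and Ckmt2 (chromosome 13, 91853387 to 91876885) 1760 ± 353. In BAT of WT, Ckm had 6.78 ± 4.7 and Ckmt2 0.726 ± 0.493, and the log2 differences from muscle were -11.48 and -11.25 (adjusted p = 2.3e-07 and 4.9e-08). Ckb (chromosome 12, 111669361 to 111672338) was the other way round, with 16.2 ± 2.87 in BAT and 19.9 ± 6.18 in iWAT against 5.02 ± 1.34 in muscle and 3.53 ± 0.448 in liver. BAT and iWAT were not told apart for Ckb (log2 difference -0.29, 95% interval -0.89 to 0.3), nor were liver and muscle (-0.51, 95% interval -1.14 to 0.12). Per kilobase, the median level of Ckb in WT BAT was 5.67, against 1.37 for Ckm and 0.376 for Ckmt2.

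Ckmt1 (chromosome 2, 121357714 to 121363737), the ubiquitous mitochondrial kinase, was close to the limit of detection in every tissue. It had at most 12 counts in any library and 0 counts in 5 BAT, 3 iWAT, 7 liver and 15 muscle libraries. A count of 0 allows up to 3 counts, which in the deepest libraries is 0.0563 scaled CPM in BAT and 0.0346 in iWAT, for counting error alone. It passed the low-count filter in no tissue, so 7 of the 8 members could be tested between genotypes, and no statement on Ckmt1 beyond its low level is possible at this depth.

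Alpl (chromosome 4, 137741733 to 137796384) had 19.8 ± 2.21 scaled CPM in BAT, 17.4 ± 5.82 in liver, 14.9 ± 4.26 in muscle and 3.82 ± 0.996 in iWAT of WT. BAT, liver and muscle were not told apart for Alpl (log2 differences 0.18 to 0.41, adjusted p between 0.139 and 0.522), and iWAT was below all of them. Of the 7 members tested between tissues in WT, 6 were called between BAT and iWAT where 56.2% of the 18148 genes tested were, 4 between BAT and liver (63.6%), 6 between BAT and muscle (59.6%), 4 between iWAT and liver (71.5%), 5 between iWAT and muscle (70.2%) and 5 between liver and muscle (70.3%). Most genes were called between tissues, so these counts are not particular to the members. With library totals 6 further differences came past the threshold in the same direction. They were those of Ckb between BAT and iWAT (-1.01), Alpl between BAT and muscle (0.68), Gamt and Gatm between iWAT and muscle (1.22 and 1.65), and Ckmt2 and Ckm between iWAT and liver (4.72 and 4.63). Ckm and Ckmt2 had 617 and 77.5 scaled CPM in WT iWAT replicate 5, and without this library the log2 differences between BAT and iWAT went from -4.32 to -1.2 and from -4.5 to -0.52 (adjusted p = 0.409 and 0.731). The call of Ckm was lost in 4 of 10 cases of a single left-out library and that of Ckmt2 in 1 of 10.

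**Figure D1:**
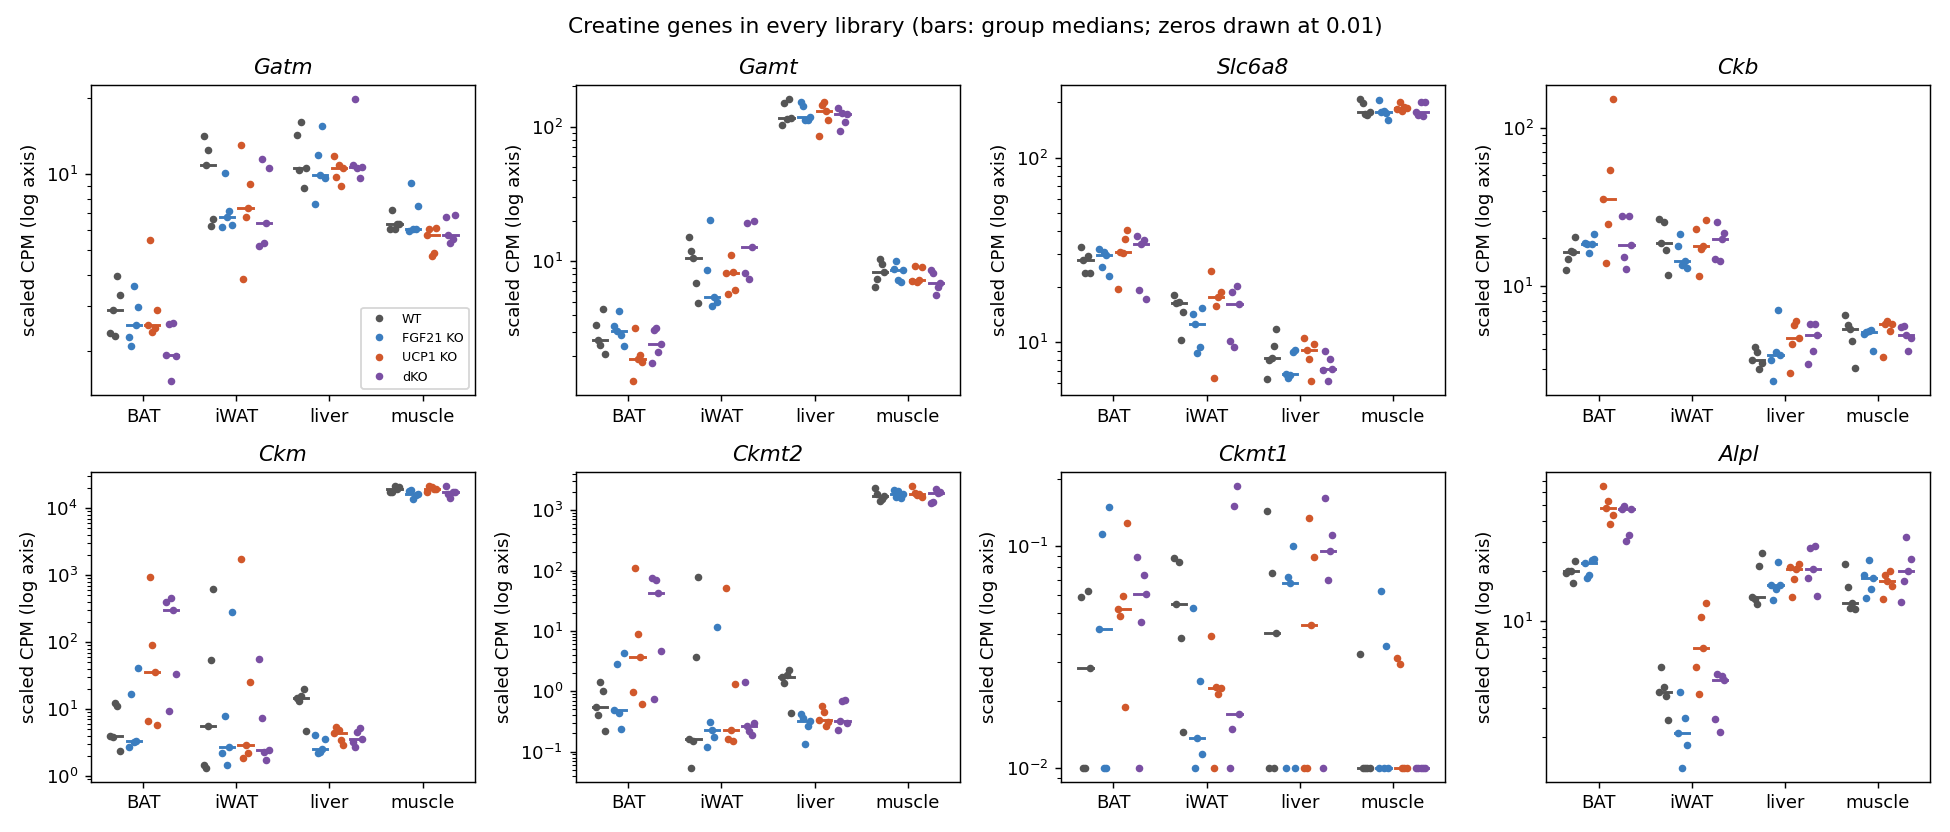
Scaled CPM (log axes) of the 8 genes in every library, by tissue and genotype, with bars at the group medians and counts of 0 drawn at 0.01. Ckm, Ckmt2 and Slc6a8 are highest in muscle, Gamt in liver and Ckb in the fat depots, while Ckm and Ckmt2 spread over orders of magnitude within the fat groups.

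Whether loss of UCP1 changed these genes was asked with UCP1 KO against WT, which have FGF21, and with dKO against FGF21 KO, which lack it, a pair of comparisons that shares no library. In BAT, Alpl was the member that rose in both. The 5 WT libraries had 19.3, 20.1, 19.9, 16.8 and 23.0 scaled CPM and the 5 FGF21 KO libraries 22.4, 18.2, 18.8, 23.3 and 23.7. The UCP1 KO libraries had 65.1, 47.8, 53.0, 38.1 and 43.3, and the dKO libraries 47.1, 49.2, 30.1, 32.7 and 47.5. Every UCP1 KO and every dKO library was above every WT and FGF21 KO library. Alpl rose 2.48-fold in UCP1 KO against WT (log2 difference 1.31, SE 0.151, 95% interval 0.99 to 1.63, edgeR adjusted p = 4.59e-06) and 1.93-fold in dKO against FGF21 KO (0.95, SE 0.15, 95% interval 0.63 to 1.26, adjusted p = 0.000197). UCP1 KO and dKO differed in Alpl by 0.25 (95% interval -0.06 to 0.56) and FGF21 KO and WT by 0.11 (95% interval -0.2 to 0.42), neither past the threshold, and the difference between the effects of UCP1 loss with and without FGF21 was 0.36 (95% interval -0.08 to 0.8, adjusted p = 0.92).

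Other genes of BAT also rose without overlap within a single comparison. How many had every UCP1 KO and dKO library above every WT and FGF21 KO library was not counted. Alpl was the 1 member whose libraries were all higher in UCP1 KO than in WT, as was the case for 12.5% of genes at or above 1 CPM. The share was 9.3% for dKO against FGF21 KO and 12.4% for dKO against WT, in both of which Alpl was again the 1 such member. Alpl is also a gene of bone-forming cells, whose 4 markers summed to 0.335 to 0.841 scaled CPM in WT BAT, 0.311 to 0.691 in FGF21 KO, 0.703 to 1.61 in UCP1 KO and 0.546 to 1.44 in dKO, with Ibsp at 0 in all of them. The summed markers of Schwann cells and nerve (5 genes) were 216 to 248 in BAT of WT, 206 to 261 for FGF21 KO, 135 to 214 for UCP1 KO and 129 to 160 for dKO. Their part in the differences of BAT was not tested. In bulk tissue, fewer cells of a type and less RNA per cell cannot be told apart.

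**Figure D2:**
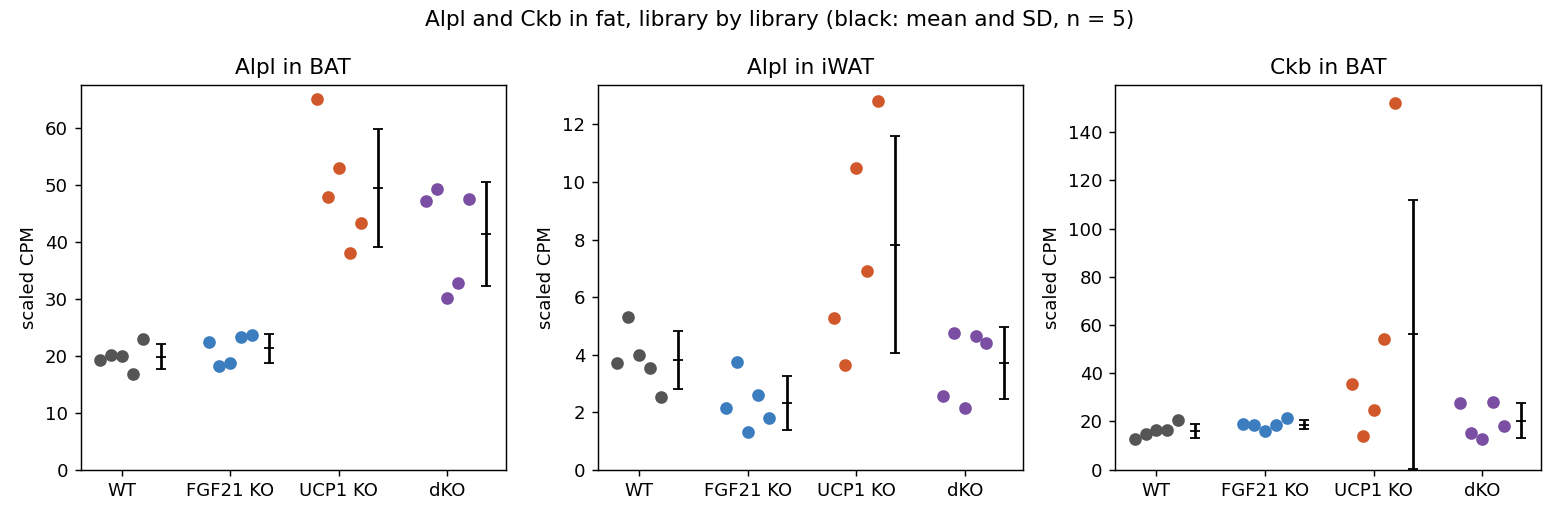
Scaled CPM of Alpl in BAT and iWAT and of Ckb in BAT in each of the 5 libraries per genotype (points), with mean ± SD in black. In BAT the UCP1 KO and dKO libraries hold 30.1 to 65.1 scaled CPM of Alpl and all others 16.8 to 23.7, and 1 UCP1 KO library with 152 lifts the mean of Ckb.

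In iWAT the same gene pointed the same way without passing the threshold. The WT libraries had 3.72, 5.31, 3.98, 3.55 and 2.53 scaled CPM of Alpl, and the UCP1 KO libraries 5.26, 3.64, 10.5, 6.90 and 12.8. The dKO libraries had 2.56, 4.76, 2.15, 4.66 and 4.40 and the FGF21 KO libraries 2.13, 3.76, 1.31, 2.60 and 1.80. The 3 highest UCP1 KO libraries were above all others, and the other 2 lay within the range of WT. The log2 difference was 1.00 for UCP1 KO against WT (95% interval 0.30 to 1.70, adjusted p = 0.131) and 1.05 against dKO (95% interval 0.34 to 1.75, adjusted p = 0.116), and the test over all 4 genotypes gave an adjusted p of 0.0215. The adjusted p of the difference from WT was 0.0406 with DESeq2, 0.0385 with a score of the lymphocyte markers as a covariate and 0.0449 in the libraries low in them, none of which is under 0.01. The summed brown adipocyte markers, which stood at 21.8 to 61.0 scaled CPM in WT iWAT, 9.43 to 52.4 in FGF21 KO and 18.5 to 92.3 in dKO, were 251 to 1640 in UCP1 KO, and their part in the level of Alpl was not tested.

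Ckb in BAT was higher in UCP1 KO than in WT, but with a wide spread. The WT libraries had 12.7, 14.8, 16.6, 16.4 and 20.5 scaled CPM and the FGF21 KO libraries 18.8, 18.4, 16.2, 18.4 and 21.3. The UCP1 KO libraries had 35.7, 14.0, 24.6, 54.2 and 152 and the dKO libraries 27.8, 15.2, 12.8, 27.9 and 18.1. Of the 5 UCP1 KO libraries, 4 were above every WT library and 1 lay within their range, and dKO and FGF21 KO overlapped. Ckb rose 3.43-fold in UCP1 KO against WT (log2 difference 1.78, SE 0.436, 95% interval 0.87 to 2.69, adjusted p = 0.00353), and the difference of dKO from FGF21 KO was 0.12 (95% interval -0.77 to 1.01, adjusted p = 0.858). The direct difference of UCP1 KO from dKO was 1.45 with an adjusted p of 0.203, and that of the effects of UCP1 loss with and without FGF21 was 1.66 with an adjusted p of 0.904, neither past the threshold. Among the BAT libraries with less than 500 scaled CPM of muscle markers (3 UCP1 KO and 2 dKO), UCP1 KO was above dKO by 2.27 (adjusted p = 0.00999) and the difference between effects was 2.48 (adjusted p = 0.0614). With a score of the skeletal muscle markers as a covariate in all BAT libraries, these were 0.95 (adjusted p = 0.474) and 1.24 (adjusted p = 0.962). Without UCP1 KO replicate 5 the difference of UCP1 KO from dKO was 0.65 (adjusted p = 0.578).

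The size of the difference in Ckb depended on UCP1 KO replicate 5. Without it the log2 difference from WT was 0.98 (adjusted p = 0.0138), and without WT replicate 1 it was 1.7 (adjusted p = 0.0105). With only UCP1 KO and WT in the fit it was 1.78 (adjusted p = 0.0261), so the call was lost in each of these cases. That library also had the lowest summed markers of brown adipocytes in BAT, 2790 against 3570 to 5680 in the other UCP1 KO libraries, and the lowest of adipocytes, 5220 against 7120 to 12300. Its smooth muscle markers (5 genes) summed to 307, where the other UCP1 KO libraries had 111 to 335. The part of these in its Ckb level was not tested.

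In iWAT, Ckb was called in no comparison, with group means of 19.9 ± 6.18 in WT, 19.1 ± 5.54 in UCP1 KO, 19.3 ± 4.69 in dKO and 16.1 ± 3.55 in FGF21 KO. UCP1 KO differed from WT there by -0.09 (95% interval -0.56 to 0.39). The difference between the effect in BAT and that in iWAT was 1.85 (adjusted p = 0.000892), and Ckb was the 1 member of 7 called in this comparison, where 10.4% of all genes were. In a fit of the BAT and iWAT libraries only, with the muscle score as a covariate, the difference in Ckb was 1.84 but its adjusted p was 0.0115. The covariate and the set of libraries changed together there, so the lost call cannot be assigned to either. Without UCP1 KO replicate 5 of BAT, in the fit of all tissues, the difference in Ckb was 1.04 (adjusted p = 0.0322). No member was called in either case.

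Ckm and Ckmt2 showed the largest differences between genotypes in BAT and moved together with skeletal muscle genes. The WT libraries had 4.0, 3.80, 12.4, 11.3 and 2.38 scaled CPM of Ckm and the FGF21 KO libraries 2.69, 16.8, 3.22, 3.30 and 41.4. The UCP1 KO libraries had 6.61, 936, 89.8, 36 and 5.74 and the dKO libraries 402, 9.41, 461, 304 and 33.8. For Ckmt2 the corresponding values were 0.558, 0.404, 1.44, 1.00 and 0.224 in WT and 0.483, 2.85, 0.434, 0.233 and 4.36 in FGF21 KO. They were 0.963, 108, 8.81, 3.68 and 0.614 in UCP1 KO and 75, 0.734, 70.7, 42.9 and 4.71 in dKO. The same libraries were high for both genes, and each group without UCP1 held libraries within the range of WT.

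In the same order, the summed level of 12 skeletal muscle markers, among them Acta1, Myh4 and Tnnt3, was 107, 109, 177, 177 and 86.6 scaled CPM in WT and 90.5, 259, 106, 91.3 and 472 in FGF21 KO. It was 115, 8540, 843, 374 and 75.9 in UCP1 KO and 3810, 134, 4540, 4270 and 359 in dKO. None of the 12 markers was at 0 in all libraries of a BAT group. UCP1 KO replicate 2 and dKO replicates 1, 3 and 4 thus led in all of these values. Markers of slow muscle (5 genes) were at up to 508 in UCP1 KO and up to 440 in dKO BAT, and at no more than 5.62 in WT and FGF21 KO.

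By the test across genes, Ckmt2 was higher in UCP1 KO than in WT by 5.07 on the log2 scale (SE 1.46, 95% interval 2.03 to 8.12, adjusted p = 0.00984) and Ckm by 4.98 (SE 1.4, 95% interval 2.04 to 7.91, adjusted p = 0.0089). In dKO against WT the differences were 5.75 for Ckmt2 (adjusted p = 0.00599) and 5.16 for Ckm (adjusted p = 0.00867). In dKO against FGF21 KO they were 4.53 (adjusted p = 0.0186) and 4.16 (adjusted p = 0.0267) with edgeR, past the threshold in neither, whereas DESeq2 called both (adjusted p = 0.00111 and 0.00219). With the muscle score, the mean log2 level of the 12 markers, as a covariate, the differences of UCP1 KO from WT were 0.16 for Ckmt2 (adjusted p = 0.653) and 0.26 for Ckm (adjusted p = 0.209). Ckb then stood at 1.96 (adjusted p = 0.0017) and Alpl at 1.42 (adjusted p = 4.05e-06). Among BAT libraries with less than 500 scaled CPM of muscle markers, which are 5 WT, 3 UCP1 KO, 2 dKO and 5 FGF21 KO libraries, Ckmt2 differed by 1.29 (adjusted p = 0.28) and Ckm by 1.25 (adjusted p = 0.288). Ckb differed there by 2.3 (adjusted p = 0.000106) and Alpl by 1.29 (adjusted p = 2.4e-05). Without UCP1 KO replicate 2 alone, Ckmt2 differed from WT by 2.3 (adjusted p = 0.123) and Ckm by 2.35 (adjusted p = 0.0903). Leaving out a single library ended the call in 7 of 10 cases for each gene. In dKO against WT the differences with the covariate were 0.34 for Ckmt2 (adjusted p = 0.397) and 0.11 for Ckm (adjusted p = 0.688), and the calls ended in 7 and 8 of 10 cases.

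In total 4 of the 7 members tested in BAT rose in UCP1 KO against WT, where edgeR called 25.2% of the 15729 genes tested and 13.8% as higher, and of these Ckmt2 and Ckm lost the call with the muscle covariate. In dKO against FGF21 KO edgeR called 1 of 7 (13.5% of genes, 6.74% as higher) and DESeq2 3 of 7. In dKO against WT edgeR called 3 of 7 (21.1% of genes, 11.1% as higher), this comparison sharing its WT libraries with the first comparison and its dKO libraries with the second. Of all genes called in UCP1 KO against WT, 54.7% were higher, and 92.0% with library totals in place of scaling factors, which move the median of all genes by 0.28. The same change took the share from 49.8% to 90.9% in dKO against FGF21 KO (shift 0.21) and from 52.6% to 86.9% in dKO against WT (shift 0.19), and the same number of members was called in each. Between UCP1 KO and dKO 0 of 7 were called by edgeR, with 2 at an unadjusted p under 0.05 and 0 by DESeq2. There 0.0636% of all genes were called. Between FGF21 KO and WT 0 members and 0% of genes were called, with 0 members at an unadjusted p under 0.05 and 0 by DESeq2. For the difference between the effects of UCP1 loss with and without FGF21, 0 members and 0% of genes were called, with 1 member at an unadjusted p under 0.05 and 0 by DESeq2. The test over all 4 genotypes called Ckmt2, Ckb, Ckm and Alpl (adjusted p = 0.00482, 0.00399, 0.00655 and 1.81e-06), where 29.7% of genes were called.

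Set against muscle tissue itself, Ckmt2 and Ckm stood to each other in BAT, as group means, in a ratio found in muscle. The ratio of Ckmt2 to Ckm was 0.109 in WT BAT and 0.113 in UCP1 KO as geometric means, 0.127 in FGF21 KO and 0.135 in dKO, and it ranged from 0.0613 to 0.156 over the 20 muscle libraries. In iWAT the geometric means were 0.0606 to 0.0674, near or just under the lower end of that range. Single libraries lay between 0.0255 and 0.163 in iWAT and between 0.0735 and 0.187 in BAT, in part outside it. Ckm over the 12 markers was 0.0439 in WT and 0.0867 in UCP1 KO BAT, a log2 difference of 0.98 (two-sided exact permutation test, p = 0.0317, adjusted p = 0.238 over 24 ratio tests). Without Myl1 the medians of this ratio were 0.11 in WT and 0.112 in UCP1 KO BAT, and with Acta1 alone the log2 difference was -0.05. The smallest p of the 24 tests was that of Ckmt2 over the markers in UCP1 KO against WT BAT, with a difference of 1.03 and p = 0.00794 by the same exact test, the smallest that 5 against 5 can give, and an adjusted p of 0.19. With Acta1 alone in place of the markers that difference was -0.0. None of the 24 ratio tests passed an adjusted p of 0.05. Over 24 tests a single ratio could not pass even at the smallest possible p. If every muscle marker read in a BAT library came with the Ckm of muscle, 6 of the 20 BAT libraries held the amount within the range of the muscle libraries, 14 held less and 0 held more. Myl1 had the highest median of the 12 markers in BAT, 70.1 scaled CPM against 36.7 for Myh4, whereas in muscle it had 12200 against 63600. Without Myl1, a choice made after its values were seen, the counts were 14 within, 6 below and 0 above. For Ckmt2, 10 BAT libraries lay within that range, 8 below and 2 above with all 12 markers, and 16 within, 0 below and 4 above without Myl1.

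**Figure D3:**
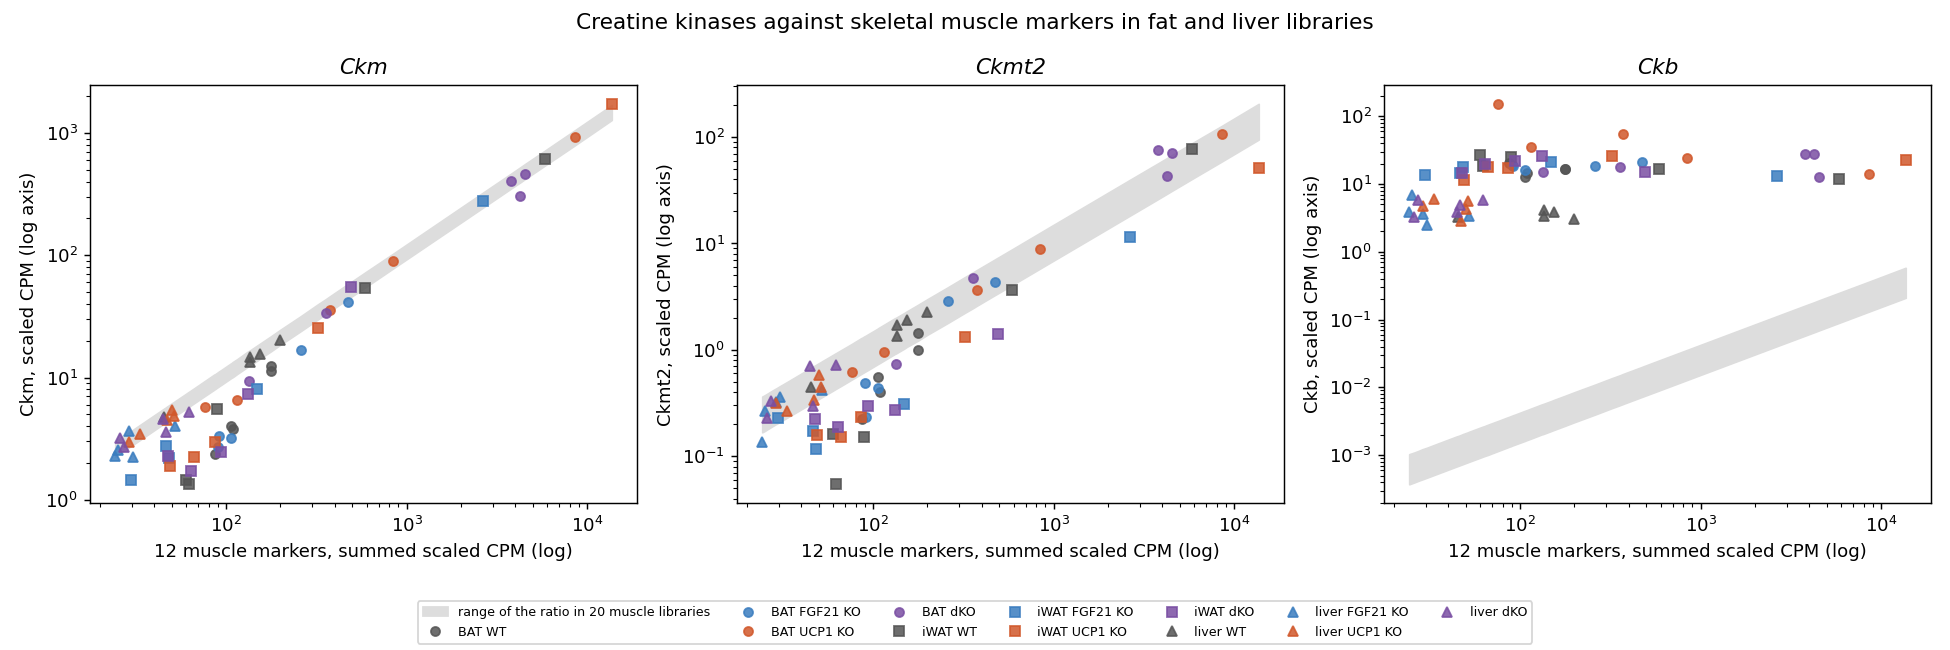
Scaled CPM of Ckm, Ckmt2 and Ckb against the summed scaled CPM of 12 skeletal muscle markers in each BAT, iWAT and liver library (log axes), with a grey band for the ratios found in the 20 muscle libraries. Most points of Ckm and Ckmt2 lie in or below the band, with 3 of each above it, and Ckb lies above it in all 60 libraries at a level that does not follow the markers.

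Ckb did not share this proportion, since it was above the amount expected from muscle in all 20 BAT and all 20 iWAT libraries. Over the 20 BAT libraries the genes whose log2 levels were most like those of Ckm were Myh4, Atp2a1 and Acta1 (Pearson r 0.999, 0.998 and 0.998), which encode a fast myosin, a calcium pump and an actin of muscle fibres, and Myot and Tcap were among those most like Ckmt2 (0.995 for both). The nearest genes for Ckb in BAT were Mtm1, Limk2 and Mospd1 (0.946, 0.928 and 0.923). These correlations describe 20 libraries that share the differences between genotypes and in the summed muscle markers. Over the 16 group means, which are set apart mainly by tissue, Slc6a8 was most like Nt5c1a (0.998), Gamt most like P4hb (0.994), Alpl most like Mrps10 (0.987) and Gatm most like Plpp3 (0.967).

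In iWAT the spread of Ckm and Ckmt2 was as wide and not ordered by genotype. Ckm had 1.44, 1.34, 5.51, 54.1 and 617 scaled CPM in WT and 1730, 1.88, 2.95, 2.24 and 25.3 in UCP1 KO, with 55.1, 7.40, 2.26, 1.73 and 2.48 in dKO and 2.18, 8.00, 1.46, 2.74 and 279 in FGF21 KO. Ckmt2 had 0.160, 0.0545, 0.152, 3.66 and 77.5 in WT, 50.8, 0.159, 0.232, 0.151 and 1.33 in UCP1 KO, 1.4, 0.270, 0.222, 0.187 and 0.297 in dKO and 0.118, 0.312, 0.230, 0.172 and 11.5 in FGF21 KO. Each group held 1 library far above the rest, and the groups overlapped. The 12 muscle markers summed to 59.6, 62.6, 89.0, 587 and 5850 in WT and to 13700, 49.0, 86.2, 66.3 and 322 in UCP1 KO. They summed to 490, 132, 47.4, 63.6 and 93.9 in dKO and 48.2, 149, 29.8, 46.3 and 2650 in FGF21 KO. These were highest in the same libraries as Ckm. The log2 difference of UCP1 KO from WT was 1.27 for Ckm (95% interval -3 to 5.53) and -0.74 for Ckmt2 (95% interval -4.58 to 3.11), intervals wide enough to hold a large rise or a large fall. Against the range of muscle, 16 of the 20 iWAT libraries held less Ckm, 3 were within and 1 was above, and 18 held less Ckmt2 and 2 were within. Without Myl1, 14 held less Ckm, 5 were within and 1 was above, and 15 held less Ckmt2 and 5 were within.

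None of the 7 members was called by edgeR in any of the 6 comparisons of iWAT, nor by DESeq2. UCP1 KO against WT had 1 member at an unadjusted p under 0.05 (0.61% of all genes were called), UCP1 KO against dKO 1 (0.466%) and dKO against WT 1 (0.0173%). The number was 0 in dKO against FGF21 KO (0.0115%), in FGF21 KO against WT (0.00575%) and for the difference between the effects of UCP1 loss (0% of genes). The test over all 4 genotypes called 0 members, with Alpl alone at an unadjusted p under 0.05, and 1.74% of genes. The synthesis genes and the transporter passed the threshold in neither depot. In BAT, Gamt differed by -0.56 in UCP1 KO against WT (95% interval -1.07 to -0.04, adjusted p = 0.0772), Gatm by 0.07 (95% interval -0.42 to 0.57) and Slc6a8 by 0.19 (95% interval -0.25 to 0.63). In iWAT these differences were -0.35 for Gamt (95% interval -1.19 to 0.48), -0.36 for Gatm (95% interval -0.98 to 0.27) and 0.09 for Slc6a8 (95% interval -0.49 to 0.67).

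**Figure D4:**
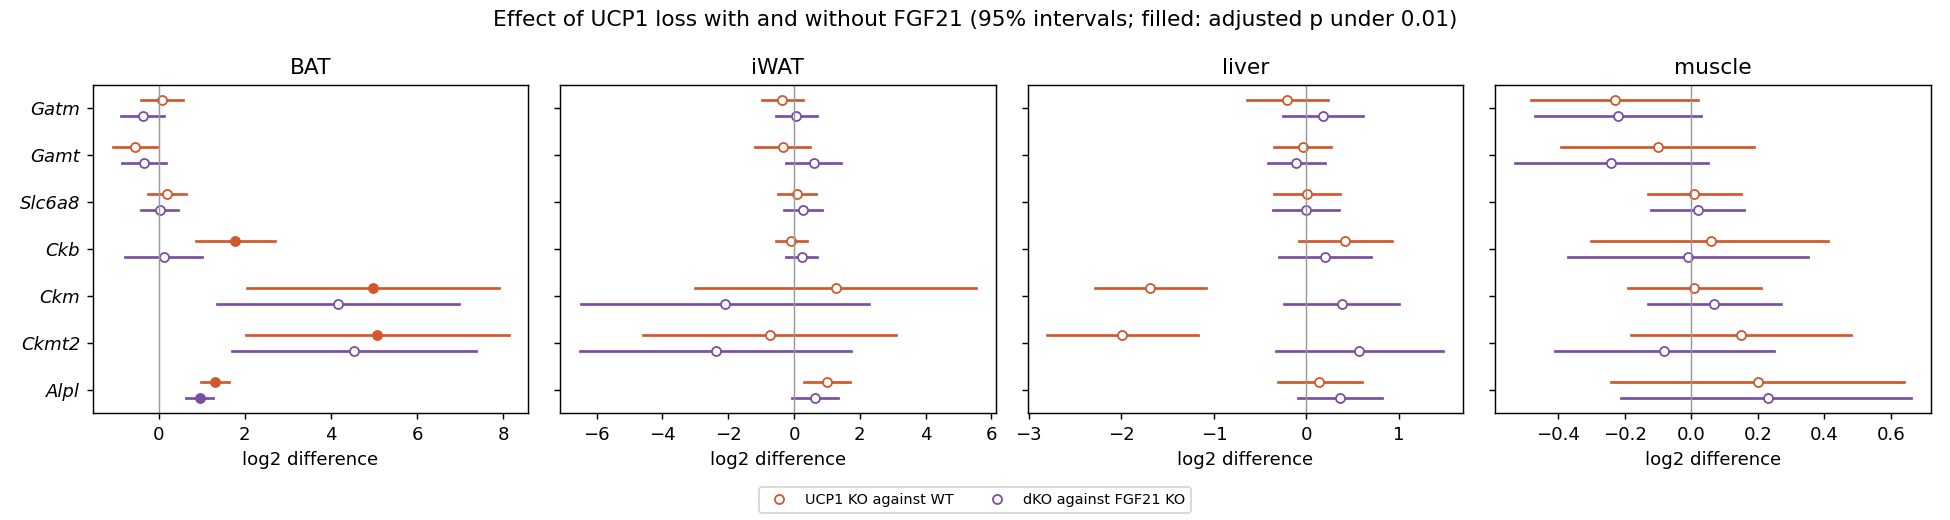
Log2 difference of UCP1 KO from WT (orange) and of dKO from FGF21 KO (purple) for the 7 tested members in each tissue, with 95% intervals and filled points at an adjusted p under 0.01, each panel on its own axis. In BAT, Alpl is past the threshold in both comparisons with narrow intervals (1.31 and 0.95), Ckm and Ckmt2 carry intervals several units wide, and Gamt is at -0.56 in UCP1 KO against WT, and Gatm and Slc6a8 are at 0.07 and 0.19.

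In liver the 2 members called were again Ckm and Ckmt2, here lower in the KO groups. Ckm had 14.7, 13.3, 15.7, 20.2 and 4.73 scaled CPM in WT. It had 4.47, 5.40, 4.86, 3.45 and 2.96 in UCP1 KO, 3.23, 2.69, 4.54, 5.23 and 3.58 in dKO and 4.04, 2.24, 2.28, 2.56 and 3.64 in FGF21 KO. Ckmt2 had 1.73, 1.35, 1.89, 2.28 and 0.445 in WT and 0.136 to 0.713 in the other groups. WT replicates 1 to 4 were high for both, and WT replicate 5 was within the range of the other groups. FGF21 KO did not overlap with WT for either gene (0.586% of genes at or above 1 CPM were lower without overlap). In FGF21 KO against WT Ckm fell by 2.23 (adjusted p = 0.00176) and Ckmt2 by 2.36 (adjusted p = 0.00528), 2 of 7 members where 0.229% of genes were called and 0.215% as lower. In dKO against WT Ckm fell by 1.84 (adjusted p = 0.00841) and Ckmt2 differed by -1.79 (adjusted p = 0.0417). That is 1 of 7 members called, where 0.0416% of genes were and 0.0208% as lower. Leaving out a single library ended this call in 9 of 10 cases, that of Ckmt2 in FGF21 KO against WT in 8 of 10 and that of Ckm there in 1 of 10. With only the compared genotypes in the fit all 3 calls were lost (adjusted p = 0.0252 for Ckm and 0.0374 for Ckmt2 in FGF21 KO against WT, and 0.0989 for Ckm in dKO against WT). UCP1 KO against WT gave -1.69 for Ckm (adjusted p = 0.0106) and -1.99 for Ckmt2 (adjusted p = 0.0269), 0 of 7 with edgeR, 2 at an unadjusted p under 0.05 and 2 with DESeq2 (0.0694% of genes).

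All 3 of these comparisons use the same WT libraries. Their 12 muscle markers summed to 136, 136, 154, 200 and 45.1 scaled CPM, against 24.3 to 62.0 in the 15 libraries of the other genotypes. With the muscle score as a covariate Ckm differed by -0.45 in FGF21 KO against WT (adjusted p = 0.998) and by -0.36 in dKO against WT (adjusted p = 0.886). In liver, 14 of 20 libraries held the amount of Ckm, and 17 the amount of Ckmt2, that lay within the range of muscle for their markers. The other comparisons of liver called 0 members, with 0 at an unadjusted p under 0.05 and 0 by DESeq2 for dKO against FGF21 KO (0.00694% of genes) and for UCP1 KO against dKO (0.00694%), and with 2 at an unadjusted p under 0.05 and 1 by DESeq2 for the difference between the effects of UCP1 loss (0% of genes). The test over all genotypes called Ckmt2 and Ckm (adjusted p = 0.00431 and 0.000644), where 0.34% of genes were called. Gamt, the most abundant member in liver, had 129 ± 25.1 in WT, 125 ± 26.8 in UCP1 KO, 118 ± 17.2 in dKO and 127 ± 18.8 in FGF21 KO, and UCP1 KO differed from WT by -0.04 (95% interval -0.35 to 0.27).

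In muscle, no member was called in any of the 6 comparisons by edgeR or DESeq2. Ckm ranged from 13900 to 21600 scaled CPM over the 20 libraries and Ckmt2 from 1330 to 2530. UCP1 KO differed from WT by 0.01 for Ckm (95% interval -0.19 to 0.21), 0.15 for Ckmt2 (95% interval -0.18 to 0.48) and 0.01 for Slc6a8 (95% interval -0.13 to 0.15), the narrowest intervals of any tissue for these genes. At an unadjusted p under 0.05 stood Ckm in FGF21 KO against WT (-0.21, adjusted p = 0.358) and Alpl in dKO against WT (0.51, adjusted p = 0.312). Of all genes, 0.0265% were called in UCP1 KO against WT and 0.0595% in dKO against FGF21 KO. The share was 0.00662% in FGF21 KO against WT, 0.0529% in dKO against WT, 0% in UCP1 KO against dKO and for the difference between effects. It was 0.086% in the test over all 4 genotypes, which called 0 members. Gatm alone had an unadjusted p under 0.05 in that test.

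The neighbours of the pathway were read from 3 lists: 16 genes that supply arginine, glycine and methyl groups, 15 of phosphate transfer at the mitochondrion and 10 of phosphatases and phosphate transport. In BAT of UCP1 KO against WT, 3 of 15 tested supply genes rose and 0 fell, 3 of 14 transfer genes rose and 1 fell, and 2 of 7 phosphatase and phosphate genes rose and 0 fell, beside 25.2% of all genes called. The median log2 differences of the lists were 0.42, 0.06 and 0.35, and 0.01 over all genes tested. In dKO against FGF21 KO the counts were 2 of 15 up, 1 of 14 up and 1 down, and 2 of 7 up, beside 13.5%, with medians of 0.27, 0.09 and 0.42, and 0 over all genes.

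The arginine transporter Slc7a1 rose most. It had 4.17, 4.64, 5.23, 4.38 and 4.43 scaled CPM in WT BAT, 4.83, 5.48, 5.33, 5.97 and 4.18 in FGF21 KO. It had 19.4, 14.9, 11.3, 25.1 and 36.6 in UCP1 KO and 17.4, 21.2, 12.8, 20.1 and 21.6 in dKO, and every library of the last 2 groups was above every library of the first 2. Within a single comparison, all libraries were higher without overlap for 12.5% of genes in UCP1 KO against WT and 9.3% in dKO against FGF21 KO. The share of genes with both groups above both others was not counted. The log2 differences of Slc7a1 were 2.22 in UCP1 KO against WT (4.67-fold, SE 0.239, adjusted p = 2.27e-06) and 1.84 in dKO against FGF21 KO (3.59-fold, SE 0.235, adjusted p = 2.51e-05). Phospho1, a phosphatase of phosphocholine and phosphoethanolamine, rose by 0.98 and 0.79 (adjusted p = 0.000719 and 0.00608), from 264 ± 48.5 in WT to 524 ± 119 in UCP1 KO and from 318 ± 36.9 in FGF21 KO to 552 ± 172 in dKO. The phosphate transporter Slc20a1 rose by 0.68 in dKO against FGF21 KO (adjusted p = 0.00408). Of the nucleoside diphosphate kinases, Nme4 rose by 0.94 in UCP1 KO against WT (adjusted p = 0.00323), from 0.718 ± 0.151 to 1.39 ± 0.489, and Nme3 fell by 0.96 (adjusted p = 0.000113), from 5.81 ± 0.57 to 3.01 ± 0.605, and by 0.87 in dKO against FGF21 KO (adjusted p = 0.000488).

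In iWAT, Phospho1 was the 1 gene called of the 3 lists in UCP1 KO against WT and in UCP1 KO against dKO. It had 7.31, 7.78, 7.10, 8.16 and 10.6 scaled CPM in WT and 3.78, 7.82, 5.62, 13 and 11.6 in dKO. It had 4.03, 9.39, 2.41, 2.82 and 6.53 in FGF21 KO and 82.3, 27.5, 93.4, 94.7 and 233 in UCP1 KO. Every UCP1 KO library was above every other iWAT library. In single comparisons, all UCP1 KO libraries were higher for 3.71% of genes at or above 1 CPM against WT and 1.72% against dKO. The share above all other iWAT libraries at once was not counted. Of all genes, 0.61% and 0.466% were called in these comparisons. The rise was 12.6-fold against WT (log2 difference 3.65, SE 0.501, adjusted p = 0.0012) and 12.5-fold against dKO (3.64, adjusted p = 0.00147), and it stood beside the brown adipocyte markers that were also higher in UCP1 KO iWAT.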

How the data were processed

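Strand-specific libraries of poly(A) RNA were read by the authors in paired-end mode (100 bp), and aligned with STAR to mm10 and counted with HTSeq on the UCSC known gene annotation, as the processing notes and the study's methods say. The deposited values are raw counts per gene, 1 file per library, and were used as deposited. Genotype and tissue came from the labels, and replicate numbers, given in order of deposition, only name libraries. The row without a gene name held at most 3.42e-05% of a library and was left out. Per tissue, genes with a maximum over 15, a sum over 75 and at most 10 libraries at 0 were kept (15729 in BAT, 17380 in iWAT, 14407 in liver and 15114 in muscle), scaled by TMM, and tested with the quasi-likelihood F test of edgeR 4.0.16 in R 4.3.3 on all 20 libraries, with Benjamini-Hochberg adjustment over all genes and calls at an adjusted p under 0.01. Comparisons between WT tissues, and of the UCP1 effect between BAT and iWAT, used 1 fit of 80 libraries and 16 groups (18148 genes). Ratios to muscle markers were compared by two-sided exact permutation tests, with 0.01 CPM added. Lengths were exon unions of GENCODE vM21 (GRCm38). Likeness between genes was Pearson's r of log2(CPM + 0.1) among genes of at least 1 CPM. Named were the 8 members, up to 3 largest rises and falls among called genes of the 3 pathway lists per main comparison, and genes among the 3 most like a member, of which 1 is not reported here. The members and lists were chosen with earlier results of these data known. Alternatives were DESeq2 1.42.0, other scaling, filters, thresholds and subsets of libraries, marker covariates, other marker lists, and leaving out each library. Library totals without factors, the markers without Myl1 and the BAT to iWAT difference without 1 library were chosen after seeing the data. The scripts were tested on simulated data.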

Additional observations from a re-analysis of the deposited data

Results flagged for a closer look

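In 6 of the 112 groups of 5 libraries tested, 1 library stood apart from the other 4, with a gap to its nearest neighbour that was more than 0.71 of the group's whole range, both taken on log2(CPM + 0.1). Chance alone gives about 1 in 20 such groups. Ckmt2 in iWAT was at 11.5 scaled CPM in FGF21 KO replicate 5 against 0.118 to 0.312 in the others (gap 0.84 of the range), and at 1.4 in dKO replicate 1 against 0.187 to 0.297 (0.803), both libraries being the highest of their group in skeletal muscle markers. Gatm was at 19.9 in liver dKO replicate 2 against 9.65 to 10.9 (0.836), at 5.48 in BAT UCP1 KO replicate 2 against 2.37 to 2.90 (0.762) and at 7.23 in muscle WT replicate 2 against 6.07 to 6.36 (0.735). Ckb was at 3.87 in muscle FGF21 KO replicate 5, the lowest library, against 4.96 to 5.31 (0.783). The effect of UCP1 KO against WT on Ckb differed between BAT and iWAT by a log2 value of 1.85 (adjusted p = 0.000892 with edgeR), a difference that rested in part on BAT UCP1 KO replicate 5.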

How the results depend on the processing

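Over the alternatives run, Alpl in BAT stayed called in UCP1 KO against WT, dKO against FGF21 KO and dKO against WT, with log2 differences of 1.20 to 1.39, 0.88 to 1.04 and 0.99 to 1.15 when single libraries were left out. Members called (of 7) moved by over 1.5 times as follows, and the cause was not tested. With only the 2 genotypes compared they were 1 in BAT UCP1 KO against WT and 0 in liver FGF21 KO and dKO against WT. With the muscle score as a covariate they were 2 and 1 in BAT UCP1 KO and dKO against WT, 0 in liver FGF21 KO and dKO against WT, and, in a fit of the fat libraries only, 0 for the BAT to iWAT difference. In libraries under 500 CPM of muscle markers they were 2 in BAT UCP1 KO against WT, 1 against dKO and 1 in dKO against WT. At an adjusted p under 0.05 they were 3 in BAT dKO against FGF21 KO, and 2 in liver UCP1 KO and 2 in dKO against WT. DESeq2 gave 3, 2 and 2 for the same comparisons, 1 for the liver difference between effects of UCP1 loss and 2 for the BAT to iWAT difference. Without the low-count filter liver UCP1 KO against WT had 1. Smaller moves were to 3 in BAT UCP1 KO against WT without the filter, to 6 in WT iWAT against liver and 6 in iWAT against muscle with DESeq2, to 6 in iWAT against muscle with RLE factors and without the filter, to 7 in BAT and in iWAT against muscle with library totals, and to 4 in BAT against iWAT with only their WT libraries. With library totals without factors, WT iWAT against liver had 7 and the BAT to iWAT difference 2, and without BAT UCP1 KO replicate 5 that difference had 0. Leaving out single libraries gave 1 to 4 in BAT UCP1 KO against WT, 1 to 3 in BAT dKO against WT, 0 to 2 in liver UCP1 KO, FGF21 KO and dKO against WT and 0 to 1 for the liver difference between effects. In WT it gave 4 to 6 for BAT against iWAT, 4 to 5 for iWAT against liver and 5 to 6 for iWAT against muscle. Signs reversed for Ckmt2 in iWAT dKO against WT (2.06 in libraries under 500 CPM of muscle markers and 1.04 in those low in lymphocyte markers, which leave 1 FGF21 KO library, assumed to vary like the others), in liver dKO against WT with the muscle covariate (0.02) and in WT iWAT against liver (-0.58 to 3.72 over left-out libraries). Log2 differences of ratios reversed with Acta1 alone for Ckm in BAT UCP1 KO against WT (-0.05), dKO against FGF21 KO (-0.28) and UCP1 KO against dKO (0.19), for Ckmt2 in the first 2 of these (-0.0 and -0.19) and for Ckb in iWAT dKO against FGF21 KO (-0.08). With slow markers they reversed in BAT dKO against FGF21 KO and UCP1 KO against dKO for Ckm (-0.79 and 1.45) and Ckmt2 (-0.7 and 1.2), and in iWAT UCP1 KO against WT for Ckmt2 (0.09) and Ckb (0.07). Without Myl1 they reversed for Ckm in BAT UCP1 KO against dKO (0.13) and iWAT UCP1 KO against WT (-0.01). Over left-out libraries the ratios that reversed ranged, in iWAT UCP1 KO against WT, from -0.21 to 0.37 for Ckm, -0.49 to 0.44 for Ckmt2, -1.37 to 1.28 for Ckb and -0.46 to 0.11 for Ckmt2 over Ckm. In iWAT UCP1 KO against dKO the ranges were -0.1 to 0.52, -0.09 to 0.22, -1.86 to 0.11 and -0.5 to 0.11. In iWAT dKO against FGF21 KO they were -0.83 to 0.97 for Ckb and -0.14 to 0.43 for Ckmt2 over Ckm. In BAT they were -1.73 to 0.83 for Ckb and -0.05 to 0.14 for Ckmt2 over Ckm in UCP1 KO against WT, -0.09 to 0.14 for Ckm in UCP1 KO against dKO and -0.11 to 0.28 for Ckmt2 over Ckm in dKO against FGF21 KO. No paired analysis was possible because the labels give no replicate numbers and do not link libraries to mice. Depth limits statements on Ckmt1.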
